A study of Homo sapiens with 8 samples.

Results

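The p53 target genes examined here were MDM2, BBC3, TP53I3, SESN1, FAS, TNFRSF10B, BTG2, ZMAT3, RRM2B and FDXR. The rule that chose them used gene names and no measured value, though earlier results of these data were known when it was set, and 14 of the 41000 probes on the array carried an accession of 1 of these 10 genes, out of 17240 gene symbols on the array. The cells were CAPAN-2, an established line of human pancreatic adenocarcinoma, and each RNA was hybridised on Agilent 2-colour arrays. ErbB2-KD clones carried a stably transfected shRNA vector against the receptor ErbB2, and 4 of them, named EV7, EV12, EV9 and EV18 in the labels, were each set against a pool of 4 NT clones that carried the empty vector. MUC4-KD clones were made by retroviral infection with an shRNA against the membrane mucin MUC4, and 4 arrays set them against a pool of 4 Mock clones made with the empty retrovirus. The labels do not name the MUC4-KD clones, so that a clone present on more than 1 array cannot be told apart from 4 separate ones. Every clone had been isolated and expanded under drug selection, so that a difference between clones and a difference between knockdowns share the same arrays. The pool of an experiment counted as 1 control sample, and no test holds the spread between control clones.

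The transcription factor p53 is kept low by MDM2, a ubiquitin ligase that p53 itself induces, and accumulates after DNA damage and other stress. It then binds response elements built from pairs of a 10-base sequence and induces genes that arrest the cell cycle, repair DNA, control oxidative metabolism or kill the cell. FAS and TNFRSF10B encode death receptors of the cell surface, for FAS ligand and TRAIL respectively. BBC3 encodes PUMA, which acts on mitochondria to start apoptosis. A fall or rise of these transcripts in a bulk RNA cannot tell fewer expressing cells from less RNA per cell.

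The 10-base p53 consensus was looked for on both strands in the window from 250 bases before to 50 bases after each RefSeq transcript start (GRCh38.p14), since these genes are known through such sites. The consensus was present in 6.63% of all 35116 windows. Windows were at hand for 8 of the genes, and 3 of their 17 windows held it, 1 each of FAS, SESN1 and FDXR. No window was at hand for TNFRSF10B or RRM2B. The matches are given with 10 bases on each side and the consensus in capitals, because no other window of these genes held one. The FAS site begins 122 bases before its transcript start and lies at chr10:88991299-88991328 on the plus strand. The SESN1 site begins 49 bases before its start, at chr6:109009018-109009047 on the minus strand. The FDXR site begins 11 bases before its start, at chr17:74872986-74873015 on the minus strand.
FAS: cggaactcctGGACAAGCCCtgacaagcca
SESN1: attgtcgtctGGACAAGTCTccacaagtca
FDXR: gggcaggagcGGGCTTGCCCtgcggagcag
A match describes the letters of the window and not the binding of p53. Of these 3 genes only FAS passed the test in either experiment, as given with its values.

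The arrays held 56.7% to 74.2% of probes well above background in a channel, with no saturated spot, and the median spot intensities of a channel ran from 100 to 593. ErbB2-KD array 2 (clone EV12) was the brightest array, and its log2 ratios correlated less with those of the other 3 arrays (Pearson's r across probes 0.21 to 0.39) than arrays 3 and 4 did with each other (0.72). Arrays 3 and 4 both had the knockdown RNA in Cy3. Array 1 correlated at 0.29 to 0.51 with the other 3 arrays of ErbB2-KD. MUC4-KD array 4 correlated at 0.32 to 0.52 with the other 3 arrays, which reached 0.67 to 0.83 among themselves. The brighter probe of ERBB2 lay below its control in 4 of 4 ErbB2-KD clones, at -0.40 ± 0.12 on the log2 scale, and did not pass the test (adjusted p = 0.145; limma, Benjamini-Hochberg over all tested probes, as throughout). The dimmer probe of ERBB2 was lower in 0 of 4 clones, at 0.04 ± 0.02 (adjusted p = 0.897). MUC4 went against its label. Its 4 probes had mean log2 ratios of 0.27 to 1.84 in RNA labelled MUC4-KD over Mock, and the one with 1.84 ± 0.57 was higher on 4 of 4 arrays (adjusted p = 0.00804). The text therefore writes RNA labelled MUC4-KD, and each sign of that experiment is the sign of the labels. This direction is opposite to that of the study, in which MUC4 is described as silenced, and so are the signs given below for the cell cycle genes CDK1 and CCNB1. All 6 markers of ductal epithelium were well above background in 8 of 8 channels of both experiments. Of the fibroblast markers, COL3A1 was above background in 4 of 8 channels in ErbB2-KD and 3 of 8 in the MUC4-KD experiment, LUM in 0 and 1, and PDGFRB and DCN in 0 of both. Of the leukocyte markers, CD14 was above background in 8 and 8 channels, CD3E in 5 and 3 and PTPRC in 1 and 0. Of the endothelial ones, VWF was in 8 and 6, CDH5 in 2 and 1 and PECAM1 in 2 and 0. Nearly all of these were too dim to be tested. CD14 in both experiments and VWF in ErbB2-KD could be tested and did not pass. Of the 6 epithelial markers only KRT19 passed, in RNA labelled MUC4-KD (1.02 ± 0.12, adjusted p = 0.00585). The part of these markers in the results was not tested.

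In ErbB2-KD, none of the p53 target genes passed the adjusted threshold of 0.05, and the death receptor gene TNFRSF10B came nearest to it. Of the 14 probes, 12 probes of 9 genes were well above background and could be tested. MDM2 was not among them, since its probe exceeded background on 2 of 4 arrays in the ErbB2-KD channel and 1 of 4 in the NT channel. None of the 12 was called by limma, against 1.43% of all 23869 tested probes (0.549% higher and 0.884% lower), and 4 of them had an unadjusted p under 0.05. By the methods' t-test 0 were called after adjustment and 1, of TNFRSF10B, had an unadjusted p under 0.05. One probe, also of TNFRSF10B, was past 2-fold at an unadjusted p under 0.01, as were 2.40% of all tested probes. The median log2 ratio over the 9 genes was -0.02, with 4 genes above and 5 below 0, and that over all tested probes was -0.01.

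FAS was higher and TNFRSF10B was lower in RNA labelled MUC4-KD, and the other 8 genes did not pass the test. These were 2 calls among 13 tested probes of 10 genes, where 20.5% of all 25047 tested probes were called, 12.0% higher and 8.48% lower. The share among the target genes is near that background. None of the 13 was past 2-fold at an unadjusted p under 0.01, against 6.15% of all tested probes. The median over the 10 genes was -0.04, with 3 genes above and 7 below 0, beside 0.01 over all tested probes.

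**Figure D1:**
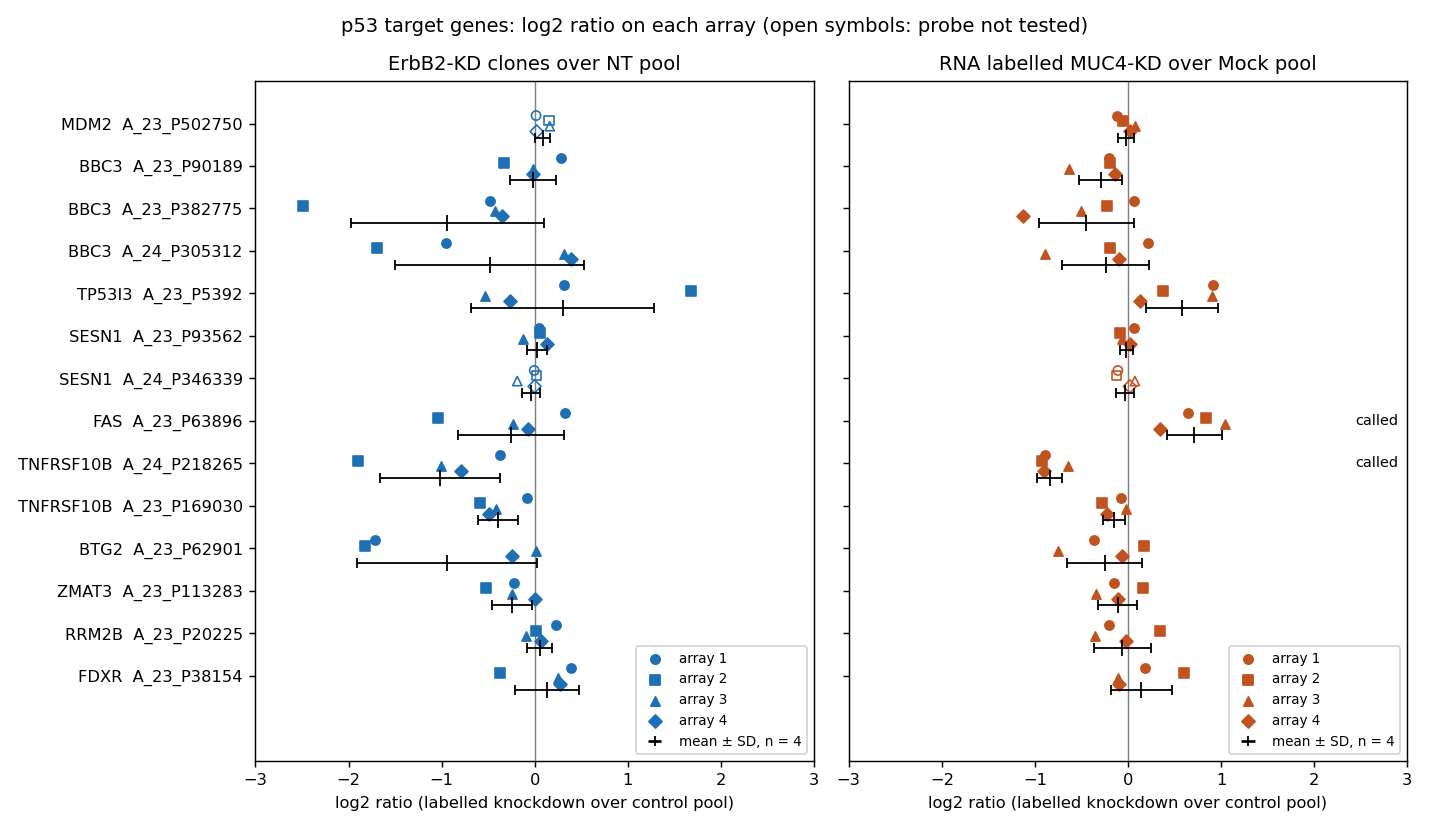
Log2 ratio of labelled knockdown over control pool (x axis) for the 14 probes of the 10 genes (y axis) on each of 4 arrays of ErbB2-KD (blue, left) and of RNA labelled MUC4-KD (orange, right), with the mean and SD below the points and "called" at an adjusted p under 0.05. All 4 FAS values lie above 0 and all 4 values of TNFRSF10B probe A_24_P218265 below 0 on the right, while on the left the square of array 2 lies far from the other arrays for BBC3 probe A_23_P382775, TP53I3 and FAS.

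The death receptors gave the 2 calls. For FAS (probe A_23_P63896) the log2 ratios on arrays 1 to 4 in RNA labelled MUC4-KD were 0.64, 0.83, 1.04 and 0.34. All 4 were above 0, with array 4 the smallest. The mean of 0.71 ± 0.30 (SD, n = 4) corresponds to a 1.64-fold higher level (adjusted p = 0.0259). In ErbB2-KD the FAS ratios were 0.32, -1.04, -0.23 and -0.07, so that EV7 lay above 0 and EV12 well below the other clones. Their mean of -0.25 ± 0.57 did not pass the test (adjusted p = 0.620), and it was 0.0066 without EV12. The FAS call in RNA labelled MUC4-KD was lost without array 1, 2 or 3 (adjusted p = 0.106, 0.100 and 0.134), when the arrays were centred on their medians (0.614) and by the methods' t-test (0.142), all with a ratio above 0.

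TNFRSF10B, the TRAIL receptor gene, had 2 probes, both below 0 on all 8 arrays. For its brighter probe (A_24_P218265) the log2 ratios in RNA labelled MUC4-KD were -0.89, -0.93, -0.64 and -0.91. These lay within a narrow range, and the mean of -0.84 ± 0.13 (1.79-fold lower) passed the test (adjusted p = 0.00937). In ErbB2-KD the same probe gave -0.37, -1.90, -1.0 and -0.79, with EV12 the lowest and EV7 the highest. Its mean of -1.02 ± 0.64 was 2.02-fold lower, at an unadjusted p of 0.00619 and an adjusted p of 0.120. With a spread shared by all 8 arrays in 1 fit the adjusted p was 0.0239. The call in RNA labelled MUC4-KD was lost without array 1 or 3 (adjusted p = 0.0651 and 0.0623), with median centring (0.814) and by the methods' t-test (0.0659). The dimmer probe (A_23_P169030) gave smaller ratios that did not pass, -0.39 ± 0.22 in ErbB2-KD (adjusted p = 0.190) and -0.15 ± 0.12 in RNA labelled MUC4-KD (adjusted p = 0.334). The probes of this gene thus share the direction but not the size.

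BBC3, the gene of the apoptosis inducer PUMA, was read by 3 probes that did not behave alike. Its brightest probe (A_23_P90189) gave 0.29, -0.33, -0.02 and -0.01 in ErbB2-KD and -0.20, -0.19, -0.64 and -0.14 in RNA labelled MUC4-KD. The first set straddles 0, with a mean of -0.02 ± 0.25 (adjusted p = 0.965). The second lies below 0 on all 4 arrays, with a mean of -0.29 ± 0.23 that did not pass (adjusted p = 0.140). Probe A_23_P382775 gave -0.48, -2.49, -0.43 and -0.35 in ErbB2-KD, all below 0 with EV12 far below the rest (mean -0.94 ± 1.04, adjusted p = 0.272). In RNA labelled MUC4-KD it gave 0.07, -0.23, -0.50 and -1.13, below 0 on 3 of 4 arrays (mean -0.45 ± 0.51, adjusted p = 0.156). In ErbB2-KD probe A_24_P305312 gave -0.95 and -1.70 where the knockdown RNA was in Cy5 and 0.32 and 0.39 where it was in Cy3. For this probe the sign followed the dye in that experiment, and dye and clone cannot be told apart, since each clone was on 1 array. Its mean was -0.48 ± 1.02 in ErbB2-KD (adjusted p = 0.559) and -0.24 ± 0.47 in RNA labelled MUC4-KD (adjusted p = 0.381).

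TP53I3 encodes an oxidoreductase that p53 induces in connection with oxidative stress. Its ratios in RNA labelled MUC4-KD were 0.91, 0.37, 0.90 and 0.13, all above 0, and their mean of 0.58 ± 0.39 fell short of the threshold (adjusted p = 0.0579). Without array 4 it was 0.73 and passed (adjusted p = 0.0168). With all probes of a gene averaged it stayed at 0.58 and passed narrowly (adjusted p = 0.0497). In ErbB2-KD the ratios were 0.31, 1.68, -0.53 and -0.26. EV12 was again the extreme clone, here on the high side, and the mean of 0.30 ± 0.99 (adjusted p = 0.728) became -0.16 without it. The values above 0 belong to the clones whose RNA was in Cy5 (mean 0.997) and those below 0 to the clones in Cy3 (mean -0.40). Dye and clone cannot be told apart here either.

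BTG2, an antiproliferative gene, gave -1.72, -1.83, 0.02 and -0.25 in ErbB2-KD. The 2 low values belong to the 2 clones whose RNA was in Cy5 (mean -1.77) and the other 2 to those in Cy3 (mean -0.11). The mean of the 4 was -0.94 ± 0.96 (unadjusted p = 0.0369, adjusted p = 0.242), and with a term for the dye the adjusted p was 0.0473. EV12 was not above background for BTG2. The gene was thus tested there through the NT channel, in which it was high, and not with the filter in both channels. The ratios in RNA labelled MUC4-KD were -0.37, 0.17, -0.75 and -0.06, on both sides of 0, with a mean of -0.25 ± 0.40 (adjusted p = 0.311).

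MDM2, SESN1, RRM2B and FDXR did not pass the test where they were tested, and neither did ZMAT3 apart from 1 setting given with its values. MDM2 gave 0.02, 0.15, 0.16 and 0.02 in ErbB2-KD, where it was not tested, and -0.12, -0.05, 0.07 and 0.02 in RNA labelled MUC4-KD (mean -0.02 ± 0.08, adjusted p = 0.906). This probe was dim, at a mean log2 intensity of 6.95 to 7.25 in the 4 RNAs, and signals this close to background limit what could be seen of MDM2. ZMAT3, which encodes an RNA-binding zinc finger protein, averaged -0.25 ± 0.22 in ErbB2-KD (adjusted p = 0.379) and -0.11 ± 0.21 in RNA labelled MUC4-KD (adjusted p = 0.526). With Feature Extraction's own ratios ZMAT3 was at -0.79 in RNA labelled MUC4-KD and was called (adjusted p = 0.0469). In each experiment ZMAT3 was above background on 3 of 4 arrays in the knockdown channel and 4 of 4 in the control channel. It was thus tested through the channel in which it was high, and was not tested with the filter in both channels. SESN1, a sestrin that restrains growth signalling under stress, averaged 0.03 ± 0.11 and -0.02 ± 0.07 (adjusted p = 0.934 and 0.918), and its second probe was too dim to test in either. RRM2B, the p53-induced subunit of ribonucleotide reductase, averaged 0.05 ± 0.14 and -0.06 ± 0.30 (adjusted p = 0.855 and 0.783). FDXR, the mitochondrial ferredoxin reductase, averaged 0.13 ± 0.34 and 0.14 ± 0.33 (adjusted p = 0.724 and 0.514). The 95% intervals were narrowest for SESN1, from -0.24 to 0.29 and from -0.27 to 0.23, and for FDXR they ran from -0.25 to 0.52 and from -0.23 to 0.51.

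Array 2, of clone EV12, set much of the spread in ErbB2-KD. It was the farthest from the median of the other 3 for 8 of the 12 tested probes (66.7%, against 38.5% of all tested probes). It was the lowest for 9 of them, against 32% of all tested probes. Its slide also held MUC4-KD array 4 and no other array. Array 3 of RNA labelled MUC4-KD was the farthest for 5 of 13 probes (38.5%, against 18.9% of all). The part of array brightness, slide and clone in this was not tested.

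The level of each transcript was compared between the 4 RNAs through the normalised log2 intensity of its brightest tested probe, within a probe only. TNFRSF10B stood highest in the NT pool at 13.2 (13.1 to 13.4 over the 4 arrays), followed by Mock at 12.6 (12.5 to 13.0), ErbB2-KD at 12.2 (11.5 to 12.7) and RNA labelled MUC4-KD at 11.8 (11.6 to 12.1). NT lay apart from the other 3 RNAs and Mock apart from MUC4-KD, while ErbB2-KD overlapped with both of its neighbours. FAS stood at 9.56 in NT (9.26 to 9.74), 9.43 in RNA labelled MUC4-KD (9.32 to 9.53), 9.31 in ErbB2-KD (8.23 to 9.87) and 8.72 in Mock (8.50 to 9.07). The first 3 overlapped, and RNA labelled Mock lay below NT and RNA labelled MUC4-KD. If the labels of that experiment run the other way, the RNA with the low FAS level is the knockdown, and the places of these 2 RNAs change in each order given here. TP53I3 stood at 11.8 in RNA labelled MUC4-KD (11.7 to 11.9), 11.2 in Mock (10.9 to 11.6), 9.88 in ErbB2-KD (8.99 to 11.5) and 9.58 in NT (9.48 to 9.81). The 2 control pools were apart for this gene, and only ErbB2-KD overlapped with its neighbours. The ranges of all 4 RNAs overlapped for BBC3, SESN1, BTG2, ZMAT3, RRM2B and FDXR. Overlap was not counted over all probes, so how usual it is on these arrays was not tested. For MDM2 only RNA labelled MUC4-KD and NT were apart. These levels are a description, since each pool is 1 RNA measured on 4 arrays.

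**Figure D2:**
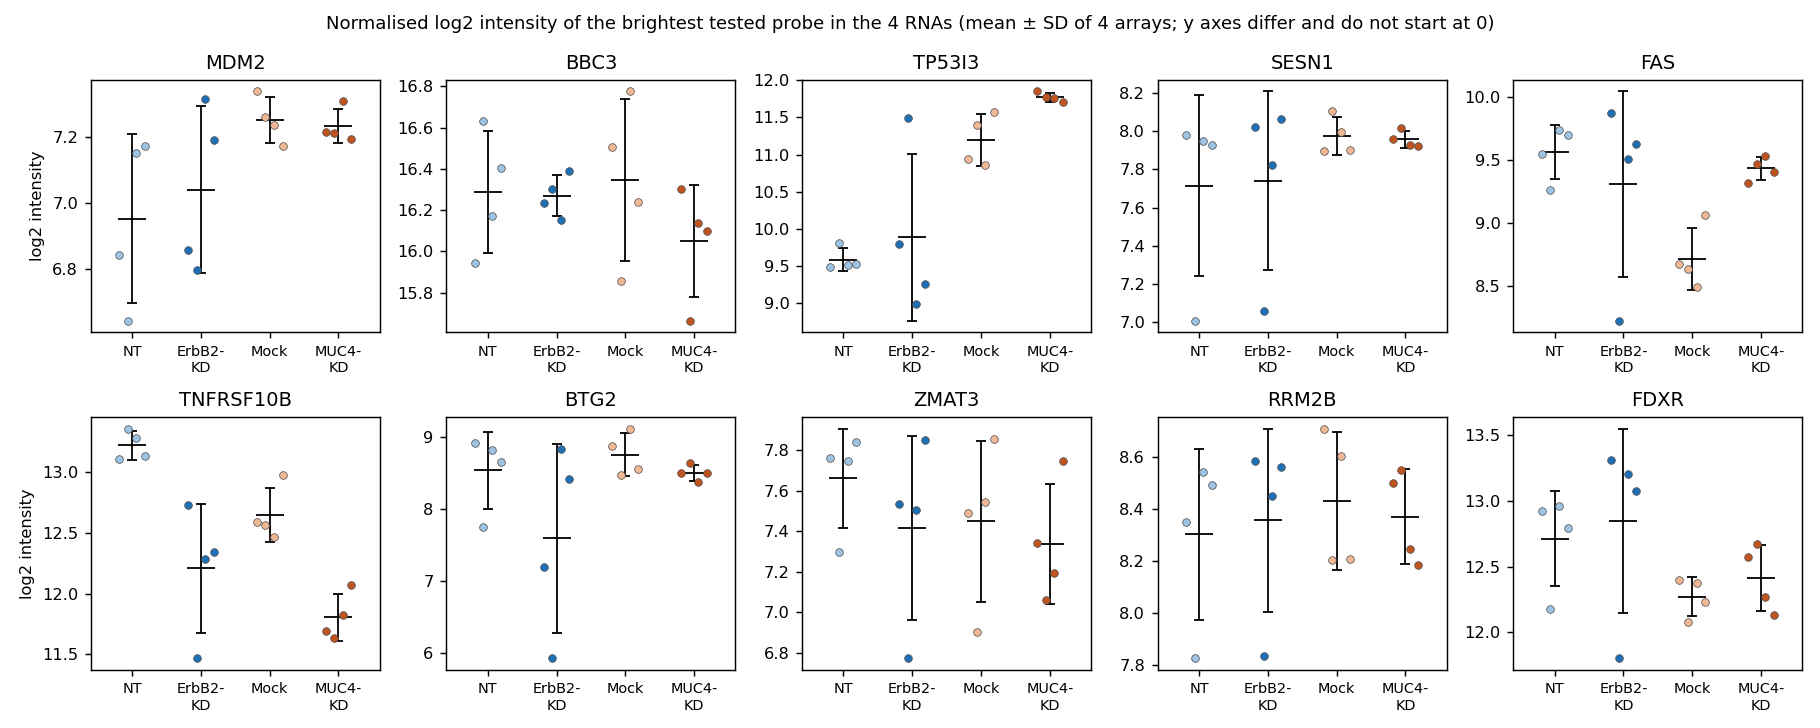
Normalised log2 intensity (y axis, with its own range in each panel and not from 0) of the brightest tested probe of each gene in the NT pool, ErbB2-KD, the Mock pool and RNA labelled MUC4-KD; points are arrays and bars the mean and SD of 4 arrays. TNFRSF10B is at 13.2 in NT and 12.2 in ErbB2-KD and at 12.6 in Mock and 11.8 in MUC4-KD, FAS is lowest in Mock at 8.72, and TP53I3 is at 11.2 in Mock and 11.8 in MUC4-KD against 9.58 in NT.

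Whether a gene responded differently in the 2 experiments was tested over all 8 arrays as the difference of the mean log2 ratios, RNA labelled MUC4-KD minus ErbB2-KD. None of the 13 tested probes passed, against 9.91% of all 25835 tested probes called, and 1, of FAS, had an unadjusted p under 0.05. The FAS difference was 0.97 (95% interval 0.33 to 1.61, unadjusted p = 0.00763, adjusted p = 0.0622). Within the 3 slides that each held arrays of both experiments it was 1.38, 0.79 and 0.91, and with the slide as a fixed block 0.99 (adjusted p = 0.0291). The TNFRSF10B difference was 0.17 (-0.48 to 0.83, adjusted p = 0.729), an interval that does not exclude a sizeable difference either way. BTG2 had the second largest difference at 0.69, with a wide interval of -0.29 to 1.67 (adjusted p = 0.326). MDM2 was among the 13 probes only through RNA labelled MUC4-KD, and its ErbB2-KD values lay near background.

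Because the targeted gene went against the MUC4-KD labels, the sum of the 2 mean log2 ratios was tested as well, which is the size of the difference if those labels run the other way. The 2 calls among 13 probes were the 2 probes of TNFRSF10B, against 17.2% of all tested probes called, so that the share is near the background. The sum was -1.86 (-2.51 to -1.21, adjusted p = 0.00501) for the brighter and -0.54 (-0.90 to -0.19, adjusted p = 0.0433) for the dimmer probe. For FAS it was 0.46 (-0.18 to 1.1, adjusted p = 0.284). As labelled, then, TNFRSF10B was below its control on all 8 arrays. With the MUC4-KD labels turned it would be above its control in that experiment and FAS below.

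**Figure D3:**
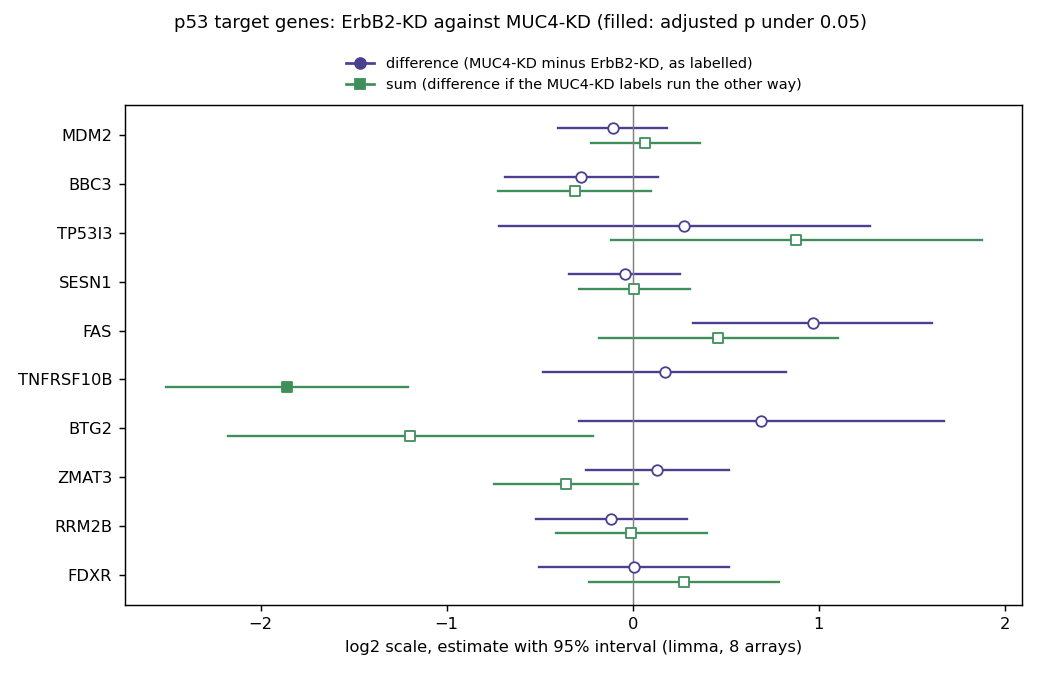
Difference of the mean log2 ratios, RNA labelled MUC4-KD minus ErbB2-KD (purple circles), and their sum (green squares), with 95% intervals on the x axis, for the brightest tested probe of each gene (y axis); filled symbols have an adjusted p under 0.05. The sum of TNFRSF10B at -1.86 is the filled symbol, and the FAS difference of 0.97 has an interval above 0 without passing after adjustment.

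The rest of the p53 pathway was read from lists of genes, with 1 probe for each gene. MDM4, an inhibitor of p53, and PPM1D, the phosphatase that switches off the p53 response, did not pass in either experiment, at 0.34 and 0.07 in ErbB2-KD and 0.11 and -0.03 in RNA labelled MUC4-KD (adjusted p from 0.349 to 0.843). The dimmer probes of MDM4 did not pass either. They were at 0.03 and -0.08 in ErbB2-KD (adjusted p = 0.932 and 0.831). In RNA labelled MUC4-KD they were at -0.29 and -0.56 (adjusted p = 0.279 and 0.0537). Among 13 regulators of p53, 0 of 12 tested were called in ErbB2-KD. This stands beside 1.43% of all tested probes called there. In RNA labelled MUC4-KD 3 of 13 were called, where 20.5% of all tested probes were, and the median of 0.11 stands beside 0.01. The one that was higher was TP63 of the p53 family (2.03 ± 1.20, adjusted p = 0.0293). TP63 was above background on 3 of 4 arrays in the Mock channel, so that it was tested through the channel in which it was high and was not tested with the filter in both channels. The TP63 ratio was 3.75 with Feature Extraction's own ratios, and the call was lost with no filter on dim probes (adjusted p = 0.0749). The kinase gene ATM (-0.82 ± 0.55, adjusted p = 0.0464) and CDKN2A, which encodes p16 and the MDM2 antagonist ARF (-0.56 ± 0.19, adjusted p = 0.0298), were lower. The dimmer probe of CDKN2A, at -0.34 ± 0.24, did not pass (adjusted p = 0.107). On array 4 ATM was at -0.01 and TP63 at 0.33, near 0 beside the other 3 arrays. None of the regulators was called without array 1, 2 or 3, with median centring or by the methods' t-test. Without array 4, 4 of them were called. Of all tested probes, 2.35%, 3.83%, 0.615% and 37.3% were called without array 1, 2, 3 and 4.

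Of 37 other targets of p53, 31 were tested in each experiment. In ErbB2-KD 1 was called, where 0.884% of all tested probes were lower, namely DRAM1, a p53-induced regulator of autophagy, which was lower in all 4 clones (-1.03, -2.40, -2.53 and -1.99, mean -1.99 ± 0.68, adjusted p = 0.0336). All 3 DRAM1 probes passed in ErbB2-KD, but the call on the brightest was lost on leaving out any single clone (adjusted p = 0.0508 to 0.160), with a dye term (0.0532), no filter on dim probes (0.100), median centring (0.148) and the methods' t-test (0.304). Its ratio stayed between -2.30 and -1.80 in these settings. In RNA labelled MUC4-KD the brightest DRAM1 probe was also lower on 4 of 4 arrays, at -0.98 ± 0.72, and just missed the threshold (adjusted p = 0.0505). Of its other probes there, A_24_P355816 passed at -1.06 ± 0.69 (adjusted p = 0.0410) and A_24_P381455, at 0.22 ± 0.55, did not (adjusted p = 0.478). Of the 31, 4 were higher and 9 lower in RNA labelled MUC4-KD, with a median of -0.25. Over all tested probes 12.0% were called higher and 8.48% lower, with a median of 0.01, so that the number higher among these targets was near the background. The higher ones were led by the kinase gene PLK2 (2.04 ± 0.24, adjusted p = 0.00232), the apoptosis gene BID (1.28 ± 0.41, adjusted p = 0.0109) and the cyclin G1 gene CCNG1 (0.93 ± 0.25, adjusted p = 0.0119). The lower ones were led by GDF15, a secreted stress cytokine (-3.06 ± 0.28, adjusted p = 0.00137), the exonuclease gene AEN (-1.40 ± 0.65, adjusted p = 0.0195) and CDKN1A, which encodes the cell cycle inhibitor p21. CDKN1A gave -1.21, -1.28, -1.15 and -1.23, a mean of -1.22 ± 0.06 (adjusted p = 0.00348), and its dimmer probe -0.64 ± 0.47 (adjusted p = 0.0618). In ErbB2-KD CDKN1A averaged 0.35 ± 0.33 (adjusted p = 0.299). PLK2, GDF15 and CDKN1A passed in RNA labelled MUC4-KD without any single array. The number of these targets called was 3 to 17 over the 4 omissions, where 0.615% to 37.3% of all tested probes were called. It was 0 with median centring and 1 by the methods' t-test, beside 0.00399% and 0.423% of all tested probes.

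Of 9 cell cycle genes whose transcripts p53 is known to lower, 0 were called in ErbB2-KD, with a median of 0.20. Over all tested probes there, 1.43% were called and the median was -0.01. Of the 9, 6 were higher and none lower in RNA labelled MUC4-KD, with a median of 0.65, beside 12.0% higher, 8.48% lower and a median of 0.01 over all tested probes. The mitotic kinase gene CDK1 rose by 1.42 ± 0.20 (adjusted p = 0.00364), the cyclin A2 gene CCNA2 by 1.08 ± 0.18 (adjusted p = 0.00614) and the cyclin B1 gene CCNB1 by 0.99 ± 0.26 (adjusted p = 0.0108). With median centring and by the methods' t-test none of the 9 was called, beside 0.00399% and 0.423% of all tested probes. With array 1, 2, 3 or 4 left out, 2, 3, 1 and 8 of them were called. The share of all tested probes called was then 2.35%, 3.83%, 0.615% and 37.3%, in the same order. These signs are those of the labels, and with the MUC4-KD labels turned the 6 would be lower.

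**Figure D4:**
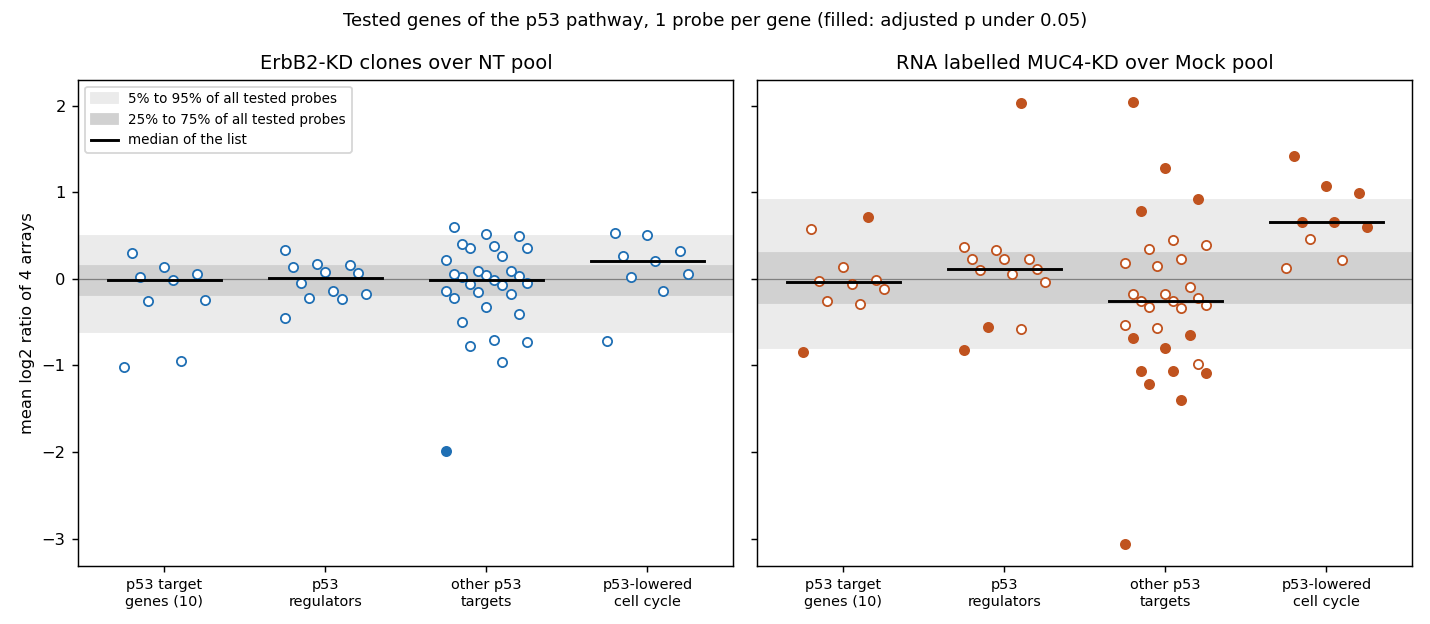
Mean log2 ratio of 4 arrays (y axis) for the tested genes of 4 lists (x axis) in ErbB2-KD (left) and RNA labelled MUC4-KD (right); filled points have an adjusted p under 0.05, black lines are list medians and grey bands hold the central shares of all tested probes. The medians on the left are -0.02, 0.01, -0.01 and 0.20, and those on the right -0.04, 0.11, -0.25 and 0.65, where GDF15 at -3.06 is the lowest point.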

How the data were processed

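The authors scanned 8 arrays and deposited Feature Extraction 10.5.1.1 output (version from the submitters' processing notes) with the median spot and background intensity of each channel. The deposited log10 ratios, Cy5 over Cy3, were used as an alternative; the series' table of log10 ratios equals them, turned to knockdown over control. With limma 3.58.1 in R 4.3.3, normexp (offset 50) removed background, outlier spots were dropped, loess was applied within arrays, and 43376 spots averaged to 41000 probes, of which 25398 received a RefSeq symbol. Each log2 ratio was turned by the labelled dyes. Tested were probes exceeding background on 4 of 4 arrays in either RNA, with the mean set against 0 (lmFit, eBayes, Benjamini-Hochberg). For the difference and the sum, a probe was kept if it passed this filter in either experiment. The smallest p of an exact sign-flip test with 4 arrays is 0.125. Levels are channel intensities after loess and Aquantile scaling. A gene's value is that of its brightest tested probe. Named were the 10 genes, ERBB2, MUC4, MDM4, PPM1D and, of each other list, at most 3 called genes per direction and experiment with 1 direction on 4 arrays. Genes and lists were chosen with earlier results of these data known. The steps were tested on simulated data. The number of arrays limits the precision. Items withheld for evaluation are not reported here.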

Additional observations from a re-analysis of the deposited data

Results flagged for a closer look

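In 3 of 25 groups of 4 arrays, 1 array lay far from the other 3 relative to the whole range, past Dixon's 95% critical value. Chance gives about 1 in 20 independent groups. These groups share arrays, and the share past that value over all tested probes was not counted. The number of such groups is therefore not a result about these genes. For BBC3 probe A_23_P90189, array 3 of RNA labelled MUC4-KD stood at a log2 ratio of -0.64, with the others between -0.20 and -0.14. For BBC3 probe A_23_P382775, ErbB2-KD array 2 (clone EV12) stood at -2.49, with the others between -0.48 and -0.35. For TNFRSF10B probe A_24_P218265, array 3 of RNA labelled MUC4-KD stood at -0.64, nearer to 0 than the others, between -0.93 and -0.89.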

How the results depend on the processing

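These results rest on 8 arrays, on 1 control pool per experiment and on MUC4-KD labels that MUC4 goes against. In ErbB2-KD the number of called p53 target probes was 1 in place of 0 with a dye term, with 1 fit over 8 arrays and with the slide as a random block over 8 arrays, and 0 otherwise. That last setting was chosen after seeing the data, because the slide as a random block within 1 experiment could not be fitted. For RNA labelled MUC4-KD it was 0 in place of 2 with median centring and with the methods' t-test. It was 3 with Feature Extraction's own ratios and with all probes of a gene averaged, and 0 to 3 when 1 array was left out. For the difference it was 1 in place of 0 with Feature Extraction's own ratios and with the slide as a fixed block, and 0 to 1 when 1 array was left out. For the sum it was 1 in place of 2 with an offset of 10, with an intensity trend and with all probes of a gene averaged, 0 with median centring, 4 with a dye term, and 1 to 2 when 1 array was left out. The share of all tested probes called moved with the setting as well. In ErbB2-KD it was 0.796% with a dye term and 4.7% with 1 fit over 8 arrays. For RNA labelled MUC4-KD it was 0.00399% with median centring and 28.1% with Feature Extraction's own ratios. For the difference it was 15.8% with those ratios and 9.92% with the slide as a fixed block. For the sum it was 18% with an intensity trend, 0.403% with median centring and 22.5% with a dye term. The causes were not tested.

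Signs turned only where the mean ratio was not called. With Feature Extraction's own ratios MDM2 was 0.26 in RNA labelled MUC4-KD, BBC3 0.047 in ErbB2-KD, and the differences of ZMAT3 and FDXR -0.32 and -0.0087. With median centring the MDM2 difference was 0.028 and SESN1 in ErbB2-KD -0.023. With all probes of a gene averaged the BBC3 difference was 0.15 and MDM4 in RNA labelled MUC4-KD -0.25. Leaving out 1 array gave ranges across 0 in ErbB2-KD for BBC3 (-0.12 to 0.086), TP53I3 (-0.16 to 0.58), SESN1 (-0.0097 to 0.077), FAS (-0.45 to 0.0066), RRM2B (-0.0049 to 0.10) and PPM1D (-0.045 to 0.13). It did so in RNA labelled MUC4-KD for MDM2 (-0.050 to 0.015), SESN1 (-0.044 to 0.0069), RRM2B (-0.20 to 0.038), FDXR (-0.0085 to 0.23) and PPM1D (-0.068 to 0.024), and for the differences of TNFRSF10B (-0.12 to 0.39) and FDXR (-0.16 to 0.093). FAS in RNA labelled MUC4-KD stayed between 0.61 and 1.06 and TNFRSF10B between -0.91 and -0.50 under all settings run.

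Over all tested probes, calls numbered 342 (131 higher) in ErbB2-KD and 31 (15 higher) with median centring, with a range of 0 without array 1 to 1121 with 1 fit over 8 arrays. Those in RNA labelled MUC4-KD numbered 5131, from 1 with median centring to 9347 without array 4. For the difference they numbered 2559 (1677 higher), from 117 (109 higher) with median centring to 5060 without MUC4-KD array 4, and for the sum 4433 (2334 higher), from 104 (85 higher) with median centring to 6846 without MUC4-KD array 4. The methods' t-test gave unadjusted p-values under 0.05 for 3176 and 6916 probes and, after adjustment, 0 and 106 calls.

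The replicate number as a replicate block left 0 target probes called for the difference (FAS 0.97, adjusted p = 0.124) and 584 of all probes. The arrays share only a number: the deviations of same-numbered arrays from their group means correlated at -0.24 to -0.049 across probes, and 0 of 8 correlated best with the same number.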
